A study of Mus musculus with 3 samples.

Results

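Exon regions of 5-hydroxymethylcytosine (5hmC) signal were taken from the differentially enriched regions of a hMeDIP-seq experiment in Sv129 mouse embryonic stem cells (mESCs). A region was kept when the deposited whole-genome tables classed it as exon, and each position was counted once. This gave 427 exon regions of 19817 listed regions. They carried 416 gene symbols, and all 427 were classed as exon in every transcript row they had. The class follows the midpoint of a region, so an exon region can extend into the introns beside it.

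The folate-deficient cells (FA0) received medium with folate at 0 mg/L, and the normal folate cells (FA4) received medium with folate at 4 mg/L. Both groups came from 1 split of the same stem cell line, and both media held fetal bovine serum. Fragmented genomic DNA was immunoprecipitated with a 5hmC kit, and there was 1 immunoprecipitated library for FA0 and 1 for FA4. An FA0 input library was not used here. No difference below has a replicate check, and each test on reads compares these libraries and not the conditions. A read count cannot tell more cells carrying 5hmC at a site from more 5hmC in each cell, and the labelled cell type could not be checked from DNA reads.

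5hmC is made when a TET dioxygenase oxidises 5-methylcytosine. It is an intermediate of active DNA demethylation and also a lasting mark in embryonic stem cells and neurons. In these cells it is known for its presence along gene bodies and at regulatory elements. Exons are the parts of a gene that remain in the mature transcript, and in mammals they often hold more CpG sites than the introns around them. Cytosine in a CpG is the main substrate for the mark.

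Among the 427 exon regions, 2 contained a whole annotated promoter window, defined as 250 bases before to 50 bases after a RefSeq transcription start site. Both windows belong to predicted genes that start inside an exon region of another gene. They are shown because an annotated start site lies inside the exon region itself, with CG dinucleotides in capitals as the main place where 5hmC can form.
Gm39411 (chr9:98749439-98749738, plus strand, GRCm38.p6): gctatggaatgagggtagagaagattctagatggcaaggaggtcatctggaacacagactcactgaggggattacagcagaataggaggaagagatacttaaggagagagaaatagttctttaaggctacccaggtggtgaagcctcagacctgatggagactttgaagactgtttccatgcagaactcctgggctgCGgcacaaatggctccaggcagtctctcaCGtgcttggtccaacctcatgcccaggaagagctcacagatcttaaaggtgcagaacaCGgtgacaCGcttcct
Gm49428 (chr15:101690291-101690590, plus strand, GRCm38.p6): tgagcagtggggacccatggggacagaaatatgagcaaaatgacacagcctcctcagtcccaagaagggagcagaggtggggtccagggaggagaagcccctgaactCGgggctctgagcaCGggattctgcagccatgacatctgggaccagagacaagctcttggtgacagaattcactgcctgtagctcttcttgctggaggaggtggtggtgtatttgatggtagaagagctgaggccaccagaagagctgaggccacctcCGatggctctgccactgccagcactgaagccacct
The Gm39411 window held 4 CG dinucleotides and 50% G and C. The Gm49428 window held 3 CG dinucleotides and 57% G and C. Over all 32851 RefSeq promoter windows of this length the median was 7 CG dinucleotides, and 94.6% held at least 1. The dinucleotide reads the same on both strands. The first window lay in the exon region of the long noncoding RNA gene E330023G01Rik (chr9:98748821-98750060, mm10), which had 17 reads in FA0 and 2 reads in FA4. The second lay in the exon region of the keratin gene Krt6a (chr15:101689901-101690960), which had 21 reads in FA0 and 3 reads in FA4. Both of these exon regions were higher in FA0.

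Of the 427 exon regions, 267 had more 5hmC signal in FA0 and 160 had more in FA4, so 62.5% (95% interval 57.7 to 67.1) were higher in FA0. Over all listed regions the FA0-higher ones made up 38.9% and the FA4-higher ones 61.1%. The exon share was close to that of promoter regions, of which 595 of 975 or 61% (57.9 to 64.1) were higher in FA0. It lay above that of intron regions, of which 2613 of 6027 or 43.4% (42.1 to 44.6) were higher in FA0. Intergenic regions had the lowest share, 30.8% (29.9 to 31.7). These intervals are exact binomial intervals that treat regions as independent and cover counting error only. No test between classes was made, since all classes come from the same pair of libraries.

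**Figure D1:**
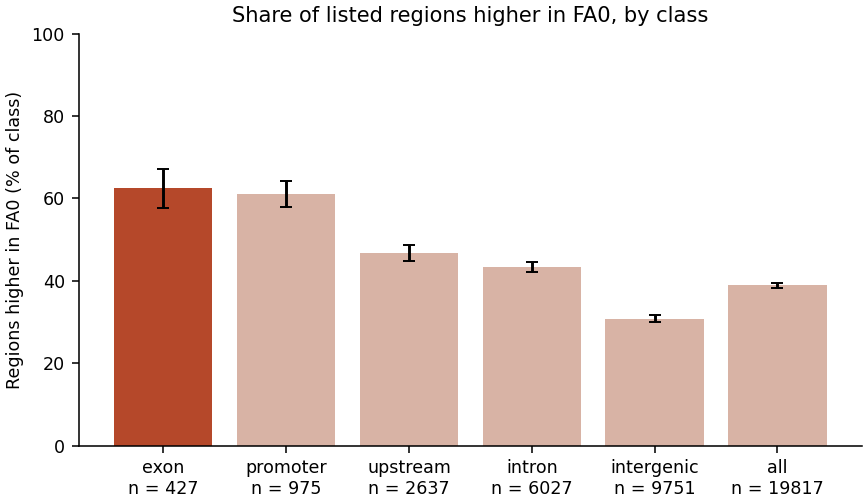
Percent of listed regions in each class with more signal in FA0, with the exact 95% binomial interval as error bars and the number of regions under each class. Exon regions stand at 62.5% and promoter regions at 61%, above upstream (46.8%), intron (43.4%) and intergenic (30.8%) regions.

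The size of this share depended on how the libraries were scaled to each other. The deposited normalized counts give each FA0 read 1.33 times the weight of an FA4 read. On unscaled reads with an exact binomial test at equal shares, 33 FA0-higher and 95 FA4-higher exon regions remained, a share of 25.8% in FA0, against 11% for intron regions. Of the named exon regions, 17 of 67 FA0-higher and 33 of 39 FA4-higher ones passed on unscaled reads. With an exact two-sided binomial test at the authors' scaling and the p threshold of 1e-04, 213 exon regions remained higher in FA0 and 44 remained higher in FA4, a share of 82.9% in FA0. This test reuses the counts by which regions were listed, so a pass is not independent support. It also asks more reads of FA4. Against 0 reads in the other library, 11 FA0 reads were enough to pass, while 16 FA4 reads were not. The median FA4-higher exon region had 0 reads in FA0 and 15 reads in FA4, too few to pass. As a share of the class, 49.9% of exon regions passed this exact test as higher in FA0, against 29.0% of all listed regions. By the same test 10.3% of exon regions passed as higher in FA4, against 16.0% of all listed regions. Exon regions kept a higher FA0 share than intron regions under each of the 8 settings compared.

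The FA0-higher exon regions held 5236 reads in FA0 and 877 reads in FA4 in all. A typical one spanned 760 bp (median, quartiles 580 and 1020) and had 18 reads in FA0 and 2 reads in FA4. No FA4 read at all was found in 61 of the 267, or 22.8% (17.9 to 28.4). Among FA0-higher intron regions this share was 32.5% (30.7 to 34.3), and over all FA0-higher regions it was 32.4%. Per kb of region the FA0-higher exon regions had a median of 24.3 reads in FA0 and 2.7 in FA4.

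The FA4-higher exon regions were longer and emptier in the other library than the FA0-higher ones, as in every class of listed regions. They spanned a median of 880 bp (quartiles 655 and 1180) and held 70 reads in FA0 and 2851 reads in FA4 in all. A typical one had 0 reads in FA0 and 15 reads in FA4. No FA0 read was found in 123 of the 160, or 76.9% (69.6 to 83.2). Among FA4-higher intron regions this share was 80.8% (79.5 to 82.1), and over all FA4-higher regions it was 81.1%. The median length was 1040 bp for FA4-higher intron regions and 1080 bp for all FA4-higher regions. The highest FA0 count in any FA4-higher exon region was 7 reads, while FA4 counts in the FA0-higher set reached 25 reads. The fewest reads that a listed region had against 0 in the other library were 10 for FA0 and 13 for FA4.

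**Figure D2:**
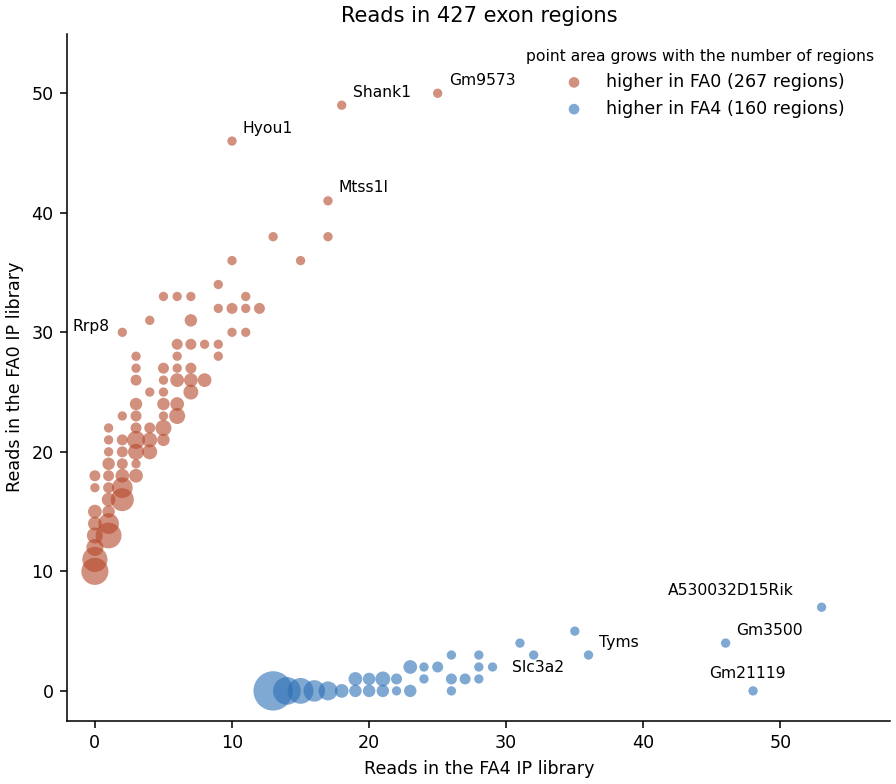
Reads in the FA0 library (vertical axis) against reads in the FA4 library (horizontal axis) for the 427 exon regions, coloured by direction, with larger points where several regions share the same counts. FA4-higher regions lie along the bottom with 0 to 7 FA0 reads, while FA0-higher regions reach up to 25 FA4 reads.

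Ratios below are of normalized counts with exact conditional 95% intervals for counting error. PCR copies are not independent molecules, and regions entered the list by passing p and fold thresholds, which inflates the ratios. Where the lower library had 0 reads, the ratio was computed against a floor of 3 reads and is written as at least that value. It leaves out counting error in the higher library, so it is not a confidence limit. It cannot be set beside the lower limits of the intervals. Among the 206 FA0-higher exon regions with at least 1 FA4 read, the ratio was between 2.67-fold and 29.3-fold higher in FA0, with a median of 9.11. Among the 37 FA4-higher exon regions with at least 1 FA0 read, FA0 was between 5.25-fold and 21-fold lower, with a median of 14.2.

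The FA0-higher exon regions with the smallest p lay in genes of varied function. Rrp8, which encodes a nucleolar methyltransferase that acts on ribosomal RNA, had 30 reads in FA0 and 2 reads in FA4 at chr7:105733881-105734620, a signal 20-fold higher in FA0 (5.07 to 173). Hyou1, a chaperone of the endoplasmic reticulum, had 46 reads in FA0 and 10 in FA4 at chr9:44384221-44385640, 6.13-fold higher in FA0 (3.05 to 13.6). The exact binomial p was 1.55e-09 for Rrp8 and 2.16e-09 for Hyou1. Both regions lay near the middle of the gene, at 48.1% and 42.2% of its length. Atp8b3, a phospholipid flippase of sperm, had 31 reads in FA0 and 4 in FA4 (chr10:80524781-80525640).

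Metabolic and signalling genes were next in order. Slc25a1, the mitochondrial citrate carrier, had 33 reads in FA0 and 5 reads in FA4 at chr16:17924661-17925880, centred 60 bp before the annotated end of the gene. Etnk2, an ethanolamine kinase of phospholipid synthesis, had 28 reads in FA0 and 3 in FA4 at chr1:133379421-133381080, centred 69 bp before the gene end. Fbxl17, a substrate receptor of SCF ubiquitin ligases, had 33 reads in FA0 and 6 in FA4. Ephb1, a receptor for ephrin-B ligands in axon guidance, had 22 reads in FA0 and 1 in FA4, 29.3-fold higher in FA0 (4.74 to 1211). The upper bound of that interval is wide because it rests on 1 FA4 read. Rreb1, a zinc finger factor of Ras signalling, had 27 reads in FA0 and 3 in FA4, and Dopey2 had 26 reads in FA0 and 3 in FA4.

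For 3 of the 12, no FA4 read was present. Dppa3 (Stella), an oocyte and stem cell factor that guards maternal DNA methylation, had 18 reads in FA0 and 0 reads in FA4 at chr6:122629481-122630580, at least 8-fold higher in FA0. Zan, a sperm protein that binds the egg coat, also had 18 reads in FA0 and 0 in FA4. Pxdc1 had 17 reads in FA0 and 0 in FA4, at least 7.56-fold higher in FA0. The exact binomial p was 2.38e-07 for Dppa3 and Zan and 5.55e-07 for Pxdc1.

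The FA4-higher exon regions with the smallest p included a central enzyme of folate metabolism. Tyms, thymidylate synthase, which uses a folate cofactor to make the thymidine nucleotide for DNA, had 3 reads in FA0 and 36 reads in FA4 at chr5:30057881-30059640, 9-fold lower in FA0 (2.84 to 45.7). Its exact binomial p was 2.04e-06, and the region was centred 561 bp before the gene end. Fbxo30, an F-box subunit of a ubiquitin ligase, had 0 reads in FA0 and 26 reads in FA4 at chr10:11289661-11291720, at least 6.5-fold lower in FA0. Mad2l1, a protein of the spindle checkpoint, had 1 read in FA0 and 27 in FA4 at chr6:66539441-66541260, 20.2-fold lower in FA0 (3.34 to 829).

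In the other 9 of these 12, FA0 held no read. Slc24a5, a cation exchanger of pigment cells, had 0 reads in FA0 and 23 in FA4, and so had Endod1. Grm5, a metabotropic glutamate receptor, had 0 reads in FA0 and 22 in FA4 (chr7:88130041-88130920). Zfp445, a zinc finger protein that maintains imprinted methylation, had 0 reads in FA0 and 21 in FA4 (chr9:122849001-122850260). Kctd18 and Ypel5 also had 0 reads in FA0 and 21 in FA4. Ahctf1, which starts nuclear pore assembly on chromatin, had 0 reads in FA0 and 20 in FA4, as had Cldnd1 and Fam208b. Exact binomial p values of these 9 were between 4.23e-06 and 1.54e-05.

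**Figure D3:**
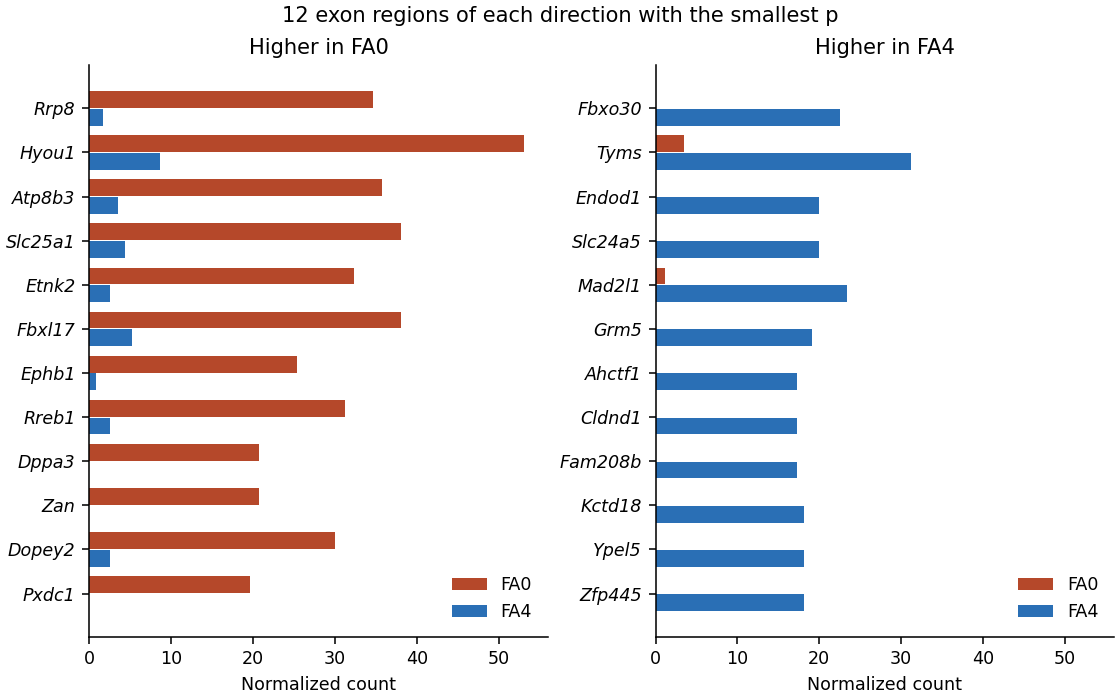
Normalized counts in FA0 (upper bar) and FA4 (lower bar) for the 12 exon regions of each direction with the smallest p, without predicted, RIKEN, microRNA and tandem family genes. In the left panel Hyou1 has the tallest FA0 bar, and in the right panel FA0 bars are present for Tyms and Mad2l1 alone.

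The 5 exon regions with the most reads over both libraries were not those with the largest ratios. Gm9573, a predicted gene, had 50 reads in FA0 and 25 in FA4 at chr17:35620781-35621680, 2.67-fold higher in FA0 (1.62 to 4.5). Shank1, a scaffold of excitatory synapses, had 49 reads in FA0 and 18 in FA4 at chr7:44356741-44358720, 3.63-fold higher in FA0 (2.08 to 6.62). Mtss1l had 41 reads in FA0 and 17 in FA4, 3.22-fold higher in FA0 (1.79 to 6.04). These counts give the narrowest intervals among the named FA0-higher regions. On unscaled reads the exact binomial test no longer passed Gm9573 (p = 0.00523), Shank1 (p = 0.000194) or Mtss1l (p = 0.00223). With FA4 counts scaled up by 25%, the call was lost for Gm9573 and Mtss1l and held for Shank1. The other 2 of the 5 were Hyou1 and A530032D15Rik, and the second of these was higher in FA4. Both kept the call in the exact binomial test on unscaled reads.

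In 11 genes there were 2 exon regions each. Both regions went the same way in 8 of them, namely Zfp574, Cacna1i, Disp2, Zfp423, Mvp and Zfhx3 (higher in FA0) and Cd93 and Gm2897 (higher in FA4). Zfp423, a zinc finger factor of cerebellar and fat cell development, had 22 reads in FA0 and 4 in FA4 in each of its regions. Cacna1i, a T-type calcium channel subunit, had 21 reads in FA0 and 4 in FA4 in the region nearer its start, and 16 reads in FA0 and 1 in FA4 in the region at its end. Zfhx3, a large homeobox and zinc finger factor, had 26 and 25 reads in FA0, against 7 and 5 reads in FA4. Mvp, the major vault protein, had 27 and 36 reads in FA0, against 5 and 15 reads in FA4. The regions of Disp2, Zfp574 and Cd93 were close neighbours, 40, 240 and 400 bp apart, and may be parts of 1 stretch of signal. Cd93, a receptor of endothelial and myeloid cells, had 0 and 2 reads in FA0, against 15 and 23 reads in FA4. By the exact binomial test on unscaled reads, the call was lost for both regions of Zfp423, Cacna1i, Zfhx3, Mvp and Disp2. It was lost for 1 Zfp574 region and held for the other, and it held for both regions of Cd93 and Gm2897.

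The remaining 3 of these genes had 1 exon region in each direction. Neil1, a glycosylase that removes oxidised bases, had 12 reads in FA0 and 0 reads in FA4 at chr9:57144781-57145120. Only 200 bp away, at chr9:57143961-57144580, it had 0 reads in FA0 and 13 reads in FA4. By the exact binomial test p was 3.84e-05 for the first and 0.000994 for the second, which did not pass the threshold. Trio, an exchange factor for small GTPases, had 18 reads in FA0 and 2 in FA4 near its end, and 0 reads in FA0 and 14 in FA4 at 69.2% of its length. Tspan9, a tetraspanin, had 12 reads in FA0 and 0 in FA4 at 33% of its length, and 0 reads in FA0 and 15 in FA4 near its end. The FA4-higher regions of Trio and Tspan9 did not pass the exact test either (p = 0.000535 and 0.00029).

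The Hedgehog, Wnt and Notch lists held 2 or 3 exon regions each, in a class of which 62.5% had more signal in FA0. In the Hedgehog list each of the 3 exon regions had more signal in FA0, as had 38 of 78 regions of any class. Hedgehog signalling patterns the neural tube through ligands that are released with help of Dispatched proteins and received at the primary cilium. Evc, a ciliary protein needed for the full response, had 31 reads in FA0 and 7 reads in FA4 at chr5:37309781-37310900, 5.9-fold higher in FA0 (2.55 to 15.9; exact binomial p = 1.42e-06). Disp2, a member of the Dispatched family, had 25 and 14 reads in FA0, against 7 and 1 reads in FA4. The exact binomial p of its regions was 9.25e-05 and 6.35e-05.

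In the Wnt list both exon regions had more signal in FA0, as had 40 of 84 regions of any class. Sp5, a transcription factor that Wnt signalling switches on, had 15 reads in FA0 and 0 reads in FA4 at chr2:70477001-70477600, at least 6.67-fold higher in FA0. Dvl2, which carries the signal from Frizzled receptors, had 11 reads in FA0 and 0 in FA4 at chr11:70006121-70006460. Both exon regions of the Notch list also had more signal in FA0, as had 21 of 39 of any class. Notch2, a receptor of the pathway, had 18 reads in FA0 and 2 in FA4. The regions of Sp5, Dvl2 and Notch2 passed the exact binomial test, with p = 3.02e-06 for Sp5, 8.96e-05 for Dvl2 and 2.97e-05 for Notch2. On unscaled reads the call held for Sp5 (p = 6.1e-05) and was lost for Dvl2 (p = 0.000977), Notch2 (p = 0.000402), Evc (p = 0.000116) and both Disp2 regions (p = 0.0021 and 0.000977), by the exact binomial test at equal shares.

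Genes of neural tube closure and planar cell polarity gave 1 FA0-higher and 2 FA4-higher exon regions, against 37 and 54 over all classes, and none of the 3 passed the exact test. Celsr2, a planar polarity cadherin, had 10 reads in FA0 and 0 reads in FA4. Prickle2, a planar polarity protein, had 1 read in FA0 and 21 in FA4, and Dact1, a partner of Dishevelled, had 0 reads in FA0 and 13 in FA4. Exact binomial p was 0.000209, 0.000112 and 0.000994.

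Genes that write, remove or read DNA methylation gave 4 exon regions, 3 of them higher in FA0. Over all classes this list had 15 of 35 regions higher in FA0. Tet2, one of the enzymes that make 5hmC, had 11 reads in FA0 and 0 reads in FA4 at chr3:133486621-133487040, at least 4.89-fold higher in FA0 (exact binomial p = 8.96e-05, and 0.000977 on unscaled reads, where the call was lost). The other FA0-higher members were Dppa3 and the first Neil1 region. In the list of pluripotency genes both exon regions (Dppa3 and Etv5) had more signal in FA0, while over all classes 20 of its 56 regions did. Etv5, an ETS factor of the stem cell state, had 32 reads in FA0 and 12 reads in FA4, 3.56-fold higher in FA0 (1.78 to 7.58), and did not pass the exact binomial test on unscaled reads (p = 0.00366).

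Both exon regions of the folate and one-carbon list were higher in FA4, against 18 of 35 regions of any class. Besides Tyms, this was Mtr, methionine synthase, which passes the methyl group of folate on to homocysteine. Mtr had 0 reads in FA0 and 17 reads in FA4 at chr13:12252981-12254580, at least 4.25-fold lower in FA0 (exact binomial p = 8.7e-05). The Tyms region lay at 96.4% of the gene and the Mtr region at 6.05%. In the DNA repair list both exon regions were also higher in FA4, against 42 of 61 of any class. Mdc1, which gathers repair proteins at double strand breaks, had 2 reads in FA0 and 29 in FA4, and Mre11a, a nuclease of such breaks, had 0 reads in FA0 and 15 in FA4. Of these repair regions Mdc1 passed the exact binomial test (p = 1.16e-05) and Mre11a did not (p = 0.00029).

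Chromatin genes gave 11 exon regions, of which 10 were higher in FA0 (among them Bcorl1, Chd9, Ehmt2, Ep400, Kat7, Kdm2b, Kdm5c, Kmt2c and Setd2) and 1 was higher in FA4 (Fam208b). Over all classes 79 of 159 regions of this list were higher in FA0. The exact test was passed by 9 of the 10 and by Fam208b. It was passed by 79.8% of all FA0-higher and 27.5% of all FA4-higher exon regions. Chd9, a chromatin remodeler, had 31 reads in FA0 and 7 reads in FA4 at chr8:91036061-91037020, 5.9-fold higher in FA0 (2.55 to 15.9). Kmt2c, a methyltransferase of histone H3 at enhancers, had 18 reads in FA0 and 1 in FA4, and Bcorl1, a corepressor on chromosome X, had 14 reads in FA0 and 0 in FA4. Thus 10 of the 11 exon regions of this list had more signal in FA0, in a class of which 62.5% did. Over all classes the list was split close to evenly between the directions. By the exact binomial test on unscaled reads, the call held for Kmt2c and Fam208b and was lost for Chd9 and Bcorl1.

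Zinc finger genes were the largest functional group, with 28 exon regions. This list was drawn up by gene symbol and name pattern, and it leaves out zinc finger factors such as Rreb1 and Wt1. FA0 was higher in 19 and FA4 in 9, against 190 and 292 over all classes. Their exon share of 67.9% in FA0 was near the 62.5% of all exon regions. The exact test was passed by 16 of the FA0-higher and 3 of the FA4-higher exon regions. Among all exon regions the shares passing were 79.8% (FA0-higher) and 27.5% (FA4-higher). Many zinc finger proteins have all their fingers in 1 long last exon. The Zfp574 regions had 22 and 15 reads in FA0, against 5 and 0 reads in FA4. On the FA4 side Zfp600, a member of a tandem cluster, had 0 reads in FA0 and 19 in FA4.

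Ion channel genes had 7 FA0-higher and 1 FA4-higher exon regions, against 137 and 179 over all classes, and 4 of the FA0-higher ones passed the exact test. Kcnj12, an inward rectifier potassium channel, had 22 reads in FA0 and 5 in FA4. Extracellular matrix and integrin genes had 7 FA0-higher and 2 FA4-higher exon regions, against 110 and 168 over all classes. Col2a1, the collagen of cartilage, had 24 reads in FA0 and 3 in FA4 at chr15:97988861-97989800, 10.7-fold higher in FA0 (3.24 to 55.3). Fbln2, an elastic fibre protein, had 22 reads in FA0 and 3 in FA4. All 7 FA0-higher matrix regions passed the exact test and neither of the FA4-higher ones did. Among all exon regions the test was passed by 79.8% of the FA0-higher and 27.5% of the FA4-higher ones. On unscaled reads the call held for Col2a1 and was lost for Fbln2 and Kcnj12.

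Axon guidance genes had 4 FA0-higher and 2 FA4-higher exon regions, against 54 and 131 over all classes. Their exon share of 66.7% in FA0 was near the 62.5% of all exon regions. Sema5b, a semaphorin, had 14 reads in FA0 and 1 in FA4, and Ephb6, an Eph receptor without kinase activity, had 12 reads in FA0 and 0 in FA4. All 3 cadherin exon regions had more signal in FA0, as had 64 of 224 over all classes. Fat1, a giant cadherin, had 21 reads in FA0 and 3 in FA4 in its exon region, while 10 of its other 12 listed regions were higher in FA4. Motor protein genes had 4 FA0-higher and 2 FA4-higher exon regions, against 61 and 68 over all classes, and their share of 66.7% in FA0 was near that of all exon regions. Dnah10, an axonemal dynein heavy chain, had 27 reads in FA0 and 5 in FA4, and Kif20b, a kinesin of cell division, had 0 reads in FA0 and 19 in FA4. By the exact binomial test on unscaled reads, the call held for Kif20b and was lost for Sema5b, Ephb6, Fat1 and Dnah10.

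Solute carriers were close to evenly split, with 7 FA0-higher and 8 FA4-higher exon regions, against 154 and 184 over all classes. Slc3a2, the heavy chain of amino acid transporters, had 3 reads in FA0 and 32 in FA4 at chr19:8706841-8707760, 8-fold lower in FA0 (2.5 to 40.8). GTPase regulators had 7 FA0-higher and 5 FA4-higher ones, against 147 and 154 over all classes. Ubiquitin ligases and deubiquitinases had 5 and 4, against 117 and 179. Both exon shares in FA0, 58.3% and 55.6%, lay near the 62.5% of all exon regions. Plekhg4, an exchange factor for small GTPases, had 26 reads in FA0 and 5 in FA4, and Rin3, a Rab5 exchange factor, had 1 read in FA0 and 24 in FA4.

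**Figure D4:**
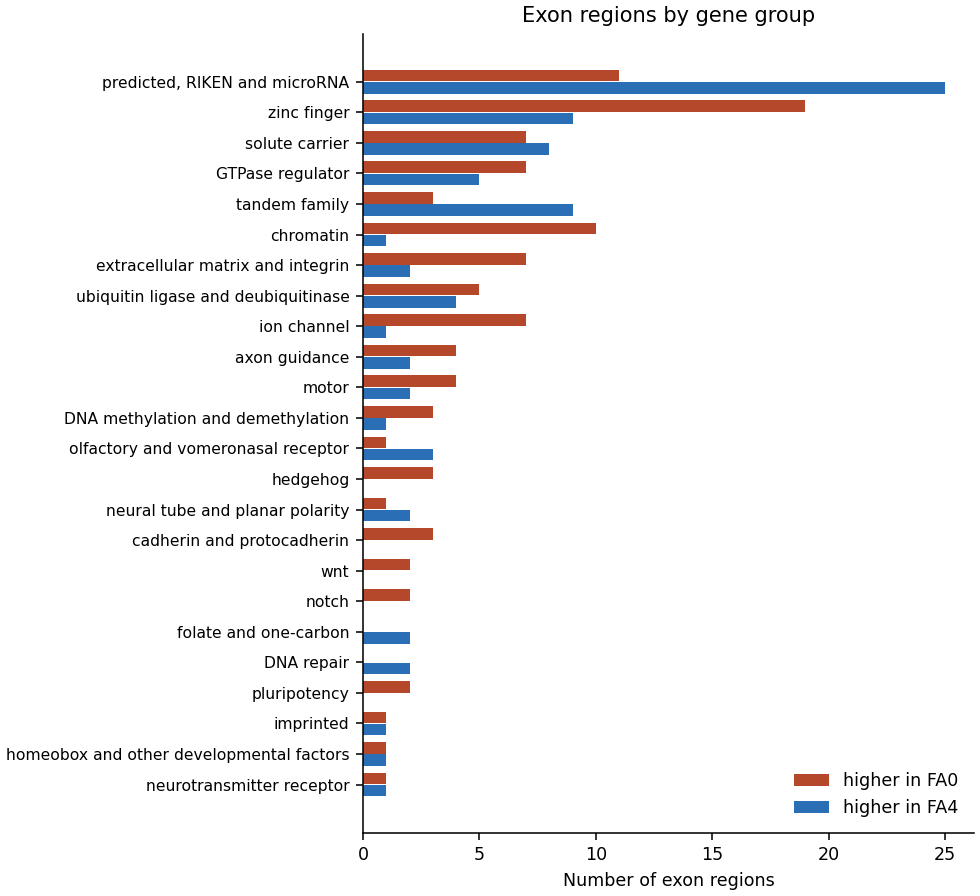
Number of exon regions higher in FA0 (upper bar) and in FA4 (lower bar) for each of 24 gene groups, ordered by the number of exon regions; a gene can stand in more than 1 group. Chromatin (10 and 1), ion channel (7 and 1) and zinc finger (19 and 9) genes have longer FA0 bars, and predicted and RIKEN genes (11 and 25) and tandem families (3 and 9) longer FA4 bars. Of all exon regions 62.5% were higher in FA0.

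Genes with predicted or RIKEN names and genes in tandem families went the other way. The predicted, RIKEN and microRNA group had 11 FA0-higher and 25 FA4-higher exon regions, against 1305 and 2776 over all classes. The tandem families had 3 higher in FA0 and 9 higher in FA4, against 134 and 593. Together they made up 14 of the 267 FA0-higher and 34 of the 160 FA4-higher exon regions. Without them there were 253 FA0-higher and 126 FA4-higher exon regions, a share of 66.8% (61.8 to 71.5). The name pattern of this group also takes in Gm2a, a lysosomal protein gene.

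The exon region with the smallest p of all 427 belonged to this group. Gm21119 had 0 reads in FA0 and 48 reads in FA4 at chr8:20061541-20062460, at least 12-fold lower in FA0 (exact binomial p = 3.59e-12), and 69 of its 72 other listed regions were higher in FA4. Gm3500 had 4 reads in FA0 and 46 in FA4 at chr14:5718021-5719040, 8.62-fold lower in FA0 (3.15 to 33). A530032D15Rik had 7 reads in FA0 and 53 in FA4 at chr1:85088001-85088620, 5.68-fold lower in FA0 (2.57 to 14.8). Gm2897 had 3 and 0 reads in FA0, against 28 and 17 reads in FA4, in regions that also lie on chromosome 14. Genes of this kind can have near-identical copies, so how reads were shared among copies is uncertain and these values are less firm than those of single-copy genes. The list of olfactory and vomeronasal receptors had 4 exon regions, 1 FA0-higher (the taste receptor gene Tas1r2) and 3 FA4-higher, against 57 and 294 over all classes. The 3 were vomeronasal receptors of pheromone detection, and Vmn2r33 among them had 4 reads in FA0 and 31 in FA4. On the FA0 side the predicted, RIKEN and microRNA group was led by D930015E06Rik, with 21 reads in FA0 and 1 in FA4. The current symbol of this protein coding gene is Tmem131l.

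Exon regions lay mostly in the later parts of genes in both directions. The positions of all annotated exons were not available, so whether this differs from exons in general was not tested. Position was taken as the distance of the midpoint from the start site as a percent of the gene, for the transcript with the shortest span. The median was 81% for FA0-higher and 85% for FA4-higher exon regions, against 45.5% for FA0-higher and 44.7% for FA4-higher intron regions. In the last 10% of the gene there were 90 of 267 FA0-higher exon regions, or 33.7% (28.1 to 39.7), and 69 of 160 FA4-higher ones, or 43.1% (35.3 to 51.2). The matching intron shares were 6.93% (5.98 to 7.97) and 6.18% (5.4 to 7.04). In the first 20% there were 16 FA0-higher and 7 FA4-higher exon regions. Every exon region was at least 2004 bp from the start site, because closer ones were classed as promoter.

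**Figure D5:**
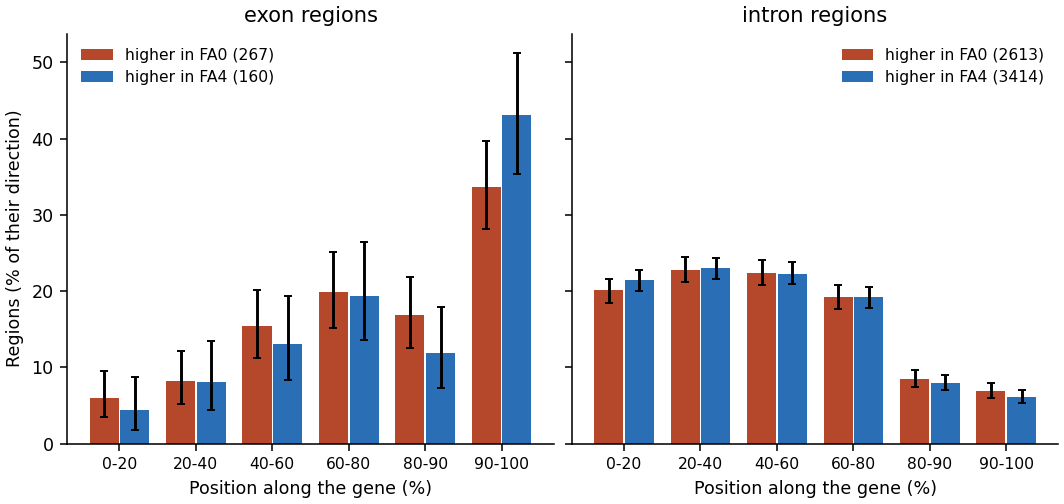
Percent of exon regions (left) and intron regions (right) of each direction in 6 intervals of the gene, from its start site (0%) to its end site (100%), with exact 95% binomial intervals as error bars. The last 2 intervals are each 10 percentage points wide. Of the exon regions 33.7% (FA0-higher) and 43.1% (FA4-higher) lie in the last 10% of the gene, while intron regions thin out there.

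From the midpoint to the end site the median distance was 4166 bp in the FA0-higher set and 2799.5 bp in the FA4-higher set. Within 2000 bp of the end site there were 33.7% (28.1 to 39.7) of the FA0-higher and 42.5% (34.7 to 50.6) of the FA4-higher ones, and these intervals overlap. Gene span was taken once per region, so a gene with several regions counts several times. Its median was 31846 bp in the FA0-higher set and 24123.5 bp in the FA4-higher set. Over intron regions, counted the same way, the medians were 93260 bp (FA0-higher) and 161760.5 bp (FA4-higher). Named regions within 1000 bp of the gene end included those of Slc25a1, Etnk2, Shank1, Tyms, Cldnd1 and Zfp445. Whether a region covers coding or untranslated sequence was not analysed here.

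Many exon regions had further listed regions in the same gene. This was so for 173 of the 267 FA0-higher exon regions and 104 of the 160 FA4-higher ones. Among the 173, the other regions were all higher in FA0 for 76, all higher in FA4 for 37 and mixed for 60. Among the 104, they were all higher in FA4 for 48, all higher in FA0 for 28 and mixed for 28. All 4 other regions of Notch2 and, for each exon region of Zfp423, all 9 others were higher in FA0. All 3 other regions of Tet2 were higher in FA4, opposite to its exon region, and so were all 3 of Kmt2c. Counted per exon region, the FA0-higher ones had 427 such other regions in all, 245 of the same direction and 182 opposite. The FA4-higher ones had 373, of which 285 went the same way and 88 the opposite way. Base shares in the whole list were 38.9% (FA0) and 61.1% (FA4). Most other regions of the gene thus shared the direction of the exon region, though in many genes some or all did not. Whether this sharing exceeds the base shares was not tested.

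A promoter region of the same gene was also listed for 20 FA0-higher and 11 FA4-higher exon regions. Its direction was the same for 15 of the 20 and for 8 of the 11. In the promoter class as a whole, 61% had more signal in FA0. For Plekhg4 the exon region lay 380 bp from a promoter region higher in FA0, and Dvl2 also had 1 listed promoter region. For Fbxo30, higher in FA4, the nearest listed region was a promoter region higher in FA4. Within 5000 bp of the exon region another listed region was found for 46 FA0-higher exon regions, and the nearest was also higher in FA0 for 32. The same held for 21 FA4-higher exon regions, of which 16 had a nearest region higher in FA4. The whole list gives a base share of 38.9% for FA0 and 61.1% for FA4. Whether neighbours share a direction more often than these base shares was not tested.

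Across chromosomes, exon regions were more often higher in FA0 than listed regions as a whole. The exon share exceeded the share over all listed regions of the chromosome on 19 of 20 chromosomes, and chromosome 12 was the exception (40% of 10 exon regions, against 41.8%). Exon regions higher in FA0 were in the majority on 13 chromosomes and those higher in FA4 on 5. Over all listed regions, FA0 was in the majority on 1 chromosome. Chromosome 15 had the highest exon share, 17 of 21 or 81% (58.1 to 94.6), and chromosome 5 had 25 of 32 or 78.1% (60 to 90.7). Chromosome 8, where Gm21119 lies, had 21 FA0-higher and 8 FA4-higher exon regions. On chromosome 1 there were 14 higher in FA0 and 17 higher in FA4. Without chromosomes 1 and 8, 63.2% (58.1 to 68.2) of exon regions were higher in FA0.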

How the data were processed

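Genomic DNA of Sv129 mESCs was profiled by hMeDIP-seq. Tools listed in the submitters' processing notes are Bowtie2 2.2.4 and cutadapt 1.9.1, with build mm10; the program that compared the libraries is not given in the sources used here. Labels and methods differ on the extraction kit, the immunoprecipitation kit and the fragment sizes.

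The authors deposited a normalized read count per library and region, a signal scaled with 1 factor per library, with 1 row per region and transcript. Dividing it by 1.15 for FA0 and 0.866 for FA4 gave whole reads for 99.99% of values (within 0.02 reads). The deposited p-value was used for ranking and for thresholds only, and deposited fold changes were not printed. It was matched by a G-test that sets both normalized counts against equal shares (median log10 distance 0.00108). Tables of promoters alone and 4 columns of averages, which equal the counts, were not used.

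Shares have Clopper-Pearson 95% intervals. The exact two-sided binomial test took 42.9% of reads in FA0 as null share. No p was adjusted, since only listed regions are in the tables. Listed regions alone do not give the depth of the libraries. Scripts used scipy 1.17.1, pandas 2.3.3, matplotlib 3.10.9 and numpy 2.4.6 under Python 3.11.15 and were tested on simulated data. Of the 427 exon regions, 411 had a symbol in the GRCm38.p6 gene table, 15 matched by accession or synonym and 1 did not match; 412 were protein coding. Promoter sequences are from RefSeq, GRCm38.p6.

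The members, gene lists and alternatives were chosen with earlier results of these data known. Named regions were the 12 per direction with the smallest deposited p (without predicted, RIKEN, microRNA and tandem family genes), the 3 per direction among those left out, up to 4 per gene list, genes with 2 exon regions, and the 5 with most reads; some regions that the rule names are not reported here. Krt6a and E330023G01Rik were named for their promoter windows after their values were seen. Alternatives varied the test, scaling, thresholds, count minimum, chromosomes, gene families, unit counted and transcript.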

Additional observations from a re-analysis of the deposited data

How the results depend on the processing

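The 62.5% share of exon regions higher in FA0 was within its interval under an FDR of 0.05, a fold of 4 (pseudocount 1), autosomes alone, FA0 raised by 25%, merging of neighbours within 1000 bp, omission of chromosomes 1 and 8, omission of gene families, and counting of symbols. It became 82.9% with the exact test (44 higher in FA4), 52.9% with FA4 scaled up by 25%, 67.2% at p of 1e-05 (82 in FA0, 40 in FA4) and 87.3% with at least 20 normalized counts (145 in FA0, 21 in FA4). It reversed to 25.8% on unscaled reads (33 in FA0, 95 in FA4). The difference between exon and intron shares, 19.2 percentage points, was 13.3 with the exact test and 10.7 with at least 20 normalized counts. The small difference between exon and promoter shares, 1.5 points, reversed to -0.633 with the exact test and -3.18 at p of 1e-05. For these changes the cause was not tested. Of the named exon regions, 63 of 67 FA0-higher and 26 of 39 FA4-higher ones passed the exact test; on unscaled reads it was 17 of 67 and 33 of 39, and none changed direction.

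Regions that were not listed could not enter under another scaling, so counts can only fall. Most FA4-higher exon regions rest on 13 to 17 FA4 reads against 0, too few to bound the ratio closely. No paired analysis was possible because each condition had 1 immunoprecipitated library, and no library could be left out.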

Other observations

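The other gene lists gave few exon regions. Among homeobox and other developmental factors, Neurod1, a proneural transcription factor, had 13 reads in FA0 and 1 read in FA4, and Foxp2, a forkhead factor of brain development, had 0 reads in FA0 and 13 in FA4. Over all classes this list counted 168 FA0-higher and 153 FA4-higher regions. Of imprinted genes, Trappc9 had 10 reads in FA0 and 0 in FA4, and Zrsr1, a retrogene expressed from the paternal allele, had 0 reads in FA0 and 13 in FA4. None of these 4 regions passed the exact binomial test (p from 0.000139 to 0.000994). Among neurotransmitter receptors, Hrh1, a histamine receptor, had 23 reads in FA0 and 5 in FA4 (exact binomial p = 2.77e-05), opposite to Grm5. By the exact binomial test on unscaled reads, the call was lost for Hrh1 (p = 0.000912) and held for Grm5 (p = 4.77e-07). Tas1r2, a sweet taste receptor subunit, had 16 reads in FA0 and 2 in FA4.

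Of the exon regions in none of the lists, 169 were FA0-higher and 84 FA4-higher. The following were chosen after their values were seen. Smad9, a mediator of BMP signals, had 20 reads in FA0 and 1 read in FA4 at chr3:54781881-54782620, 26.7-fold higher in FA0 (4.27 to 1105). Wt1, a zinc finger factor of kidney and gonad development, had 20 reads in FA0 and 2 in FA4 at chr2:105171861-105172680. Rest, a repressor of neuronal genes, had 27 reads in FA0 and 7 in FA4 at chr5:77268421-77268840. Adgra2, an adhesion receptor of brain blood vessels, had 26 reads in FA0 and 3 in FA4, and Muc5ac, a gel-forming mucin, had 23 reads in FA0 and 2 in FA4. On the FA4 side Amd2, an enzyme of polyamine synthesis that uses S-adenosylmethionine, had 1 read in FA0 and 26 reads in FA4 at chr10:40286961-40288620, 19.5-fold lower in FA0 (3.2 to 799). Amd2 belongs to a gene family with close copies, so its reads may be shared among them. Lcor, a nuclear receptor corepressor, also had 1 read in FA0 and 26 in FA4. All 7 regions passed the exact binomial test at the threshold, with p from 2.9e-07 for Adgra2 to 1.7e-05 for Rest. They were picked from these same counts, so the pass is not independent support.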
